A study of Mus musculus with 21 samples.

Results

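The interaction of genotype and time at day 14 compares how RNA levels of mouse mammary organoids moved between day 0 and day 14 of neuT activation in 2 genotypes. neuT is the oncogenic version of the rat Erbb2 gene, whose product is a receptor tyrosine kinase that signals without its normal restraint. The quantity examined is a difference of differences, the log2 change of ATLD organoids from day 0 to day 14 minus the same change of WT organoids. It rests on 12 of the 21 libraries of the series, 3 each of WT at day 0, WT at day 14, ATLD at day 0 and ATLD at day 14, chosen by their labels. ATLD organoids are homozygous for the ATLD1 allele of Mre11, which is named after ataxia-telangiectasia-like disorder, and WT organoids carry no such allele. The organoids were primary mammary epithelial cultures, sampled without neuT activation at day 0 and with it at day 14. The sources used here give neither strain nor animal age nor the means by which neuT was switched on, and nothing says that replicates came from separate animals, so p-values measure the spread between these samples.

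Together with Rad50 and Nbs1, the nuclease Mre11 recognises broken DNA ends and starts the checkpoint response of the kinase ATM. The mammary epithelium holds luminal cells, among them milk-making and progenitor cells marked by genes such as Kit and Elf5, and contractile basal cells marked by smooth muscle genes and basal keratins. Signalling by the Erbb2 receptor drives growth of this epithelium, and an oncogene that forces division can cause replication stress and DNA damage.

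The 12 libraries held 30905703 to 50879106 counts each. Levels are given as CPM, the counts of a gene relative to the TMM-scaled library total. Changes are log2 values from edgeR ± an SE derived from its F test. A gene is called where the Benjamini-Hochberg adjusted p over all 18202 genes tested is under 0.05. Mre11a (Ensembl ENSMUSG00000031928, chr9:14784654-14837123, plus strand, GRCm38) stood at 58.1, 53.8 and 52.7 CPM in WT at day 0 and at 56, 49.3 and 57.6 CPM at day 14. In ATLD it stood at 15, 13.9 and 15.3 CPM and 15.6, 16.9 and 14.6 CPM, below all 6 WT libraries at both days, and its difference of differences was 0.11 ± 0.15 (adjusted p = 0.674). Erbb2, to which reads of the rat oncogene could also have been assigned, had a difference of -0.25 ± 0.34 (adjusted p = 0.689). WT day 14 replicate 2 stood at 140 CPM against 68.4 to 113 CPM in the other 11 libraries. WT day 14 replicate 1 stood at 68.4 CPM there and at 146 CPM when sequenced again, so replicate 2 was not alone at that level. The day 0 library of replicate 1 stood at 77.2 CPM and at 110 CPM when sequenced again.

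The original WT libraries came from a first sequencing batch and the ATLD libraries from a second one. A batch shift that is equal at both days cancels in the difference of differences, while an effect on the libraries of 1 day does not. WT replicate 1 of each day was sequenced again with the ATLD libraries, so a value within the second batch exists with 1 WT run per day. WT day 14 replicates 1 and 3 stood apart from replicate 2 in how counts followed the GC content of genes, with slopes of -0.65, -0.64 and 0.15 log2 units per 10 GC points, and the resequenced run of replicate 1 gave 0.23. Slopes in the other 9 original libraries ran from -0.28 to 0.17. Over genes with many counts, log2 ratios between WT day 14 replicates 1 and 3 had an SD of 0.08. Against replicate 2 the SD was 0.58 for replicate 1 and 0.57 for replicate 3. Between libraries of WT day 0 it was 0.08 to 0.19, and within the ATLD days 0.23 to 0.37. The spread behind the p-values includes this gap between WT day 14 libraries, whose cause was not tested. All 8 epithelial marker genes were present in each group, with summed levels of 4568 to 11821 CPM, the highest in WT day 14 replicate 2.

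Of 18202 genes, 3723 (20.5%) had a called difference of differences, 1844 (10.1%) with the ATLD change above the WT change and 1879 (10.3%) below it. In WT the time change itself was called for 5357 genes (29.4%), 2762 (15.2%) up and 2595 (14.3%) down. In ATLD it was called for 1939 genes (10.7%), 837 (4.6%) up and 1102 (6.05%) down. Over all genes tested the median change was 0.02 in WT, -0.03 in ATLD and -0.06 for the difference.

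The 3 calls sort the genes into classes. The largest class, with 2250 genes (12.4%), changed in WT and had a called difference without a called change in ATLD, and is referred to as WT-specific. Opposite changes, called in both genotypes with unlike signs, were found for 609 genes (3.35%), and 447 genes (2.46%) were ATLD-specific. A further 176 genes (0.967%) moved the same way in both genotypes by unequal amounts, and 356 (1.96%) moved the same way with no called difference. The opposite class held 309 genes (1.7%) that rose and 300 (1.65%) that fell in WT, and the WT-specific class 1087 rises (5.97%) and 1163 falls (6.39%). The ATLD-specific class held 168 rises (0.923%) and 279 falls (1.53%). Of the unequal changes 59 were rises (0.324%) and 117 falls (0.643%). A difference alone, with neither time change called, was found for 241 genes (1.32%). Another 1966 genes had a called change in WT only and 351 in ATLD only, without a called difference. For these a change particular to 1 genotype was not shown, and they are in none of the classes above. The median absolute difference was 2.62 in the opposite class, 1.48 in the WT-specific class and 0.92 in the ATLD-specific class. Without WT day 14 replicate 2 the called differences rose to 6709 and the class sizes to 935 opposite, 4368 WT-specific, 678 ATLD-specific, 396 unequal and 688 shared, while within the second batch 2102 differences were called, with 408, 1091, 313, 105 and 218 genes in the classes.

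**Figure D1:**
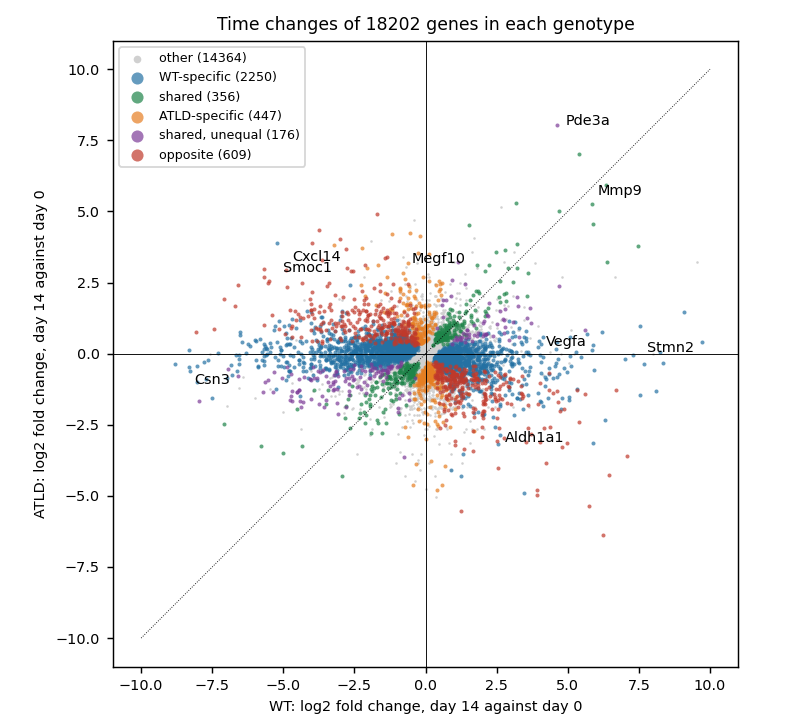
Time changes of the 18202 genes tested, with the WT log2 change from day 0 to day 14 on the horizontal axis, the ATLD change on the vertical axis and colours for the classes. The 2250 WT-specific genes spread along the horizontal axis, the 609 opposite genes lie in the upper left and lower right corners of the axes, and the dotted line marks equal changes.

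The scatter of the 2 time changes shows the classes at their true positions, with WT changes that reach farther along their axis than most ATLD changes do. How the gap between genotypes moved differed by class. The difference of differences is the change of this gap, so the sorting into classes itself fixed much of that contrast. Of the 609 opposite genes, 336 had genotypes within 1 log2 unit of each other at day 0 and farther apart at day 14, 50 went from a gap of at least 1 to a smaller one, and 80 swapped order with gaps of at least 1 at both days. In the WT-specific class the same counts were 1046, 220 and 78 of 2250, and in the shared class 26, 19 and 0 of 356. At a single day genotype and sequencing batch cannot be told apart in the original libraries, and with the resequenced WT runs in their place the opposite class gave 327, 48 and 75.

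Among genes with opposite changes that rose in WT and fell in ATLD, Ildr2 encodes an immunoglobulin-like receptor of the tricellular junction protein family. Its level in WT was 9.71, 8.11 and 8.96 CPM at day 0 and 66.2, 51.5 and 62.4 CPM at day 14, and in ATLD 11.1, 7.45 and 5.65 CPM and 1.4, 0.514 and 1.16 CPM. The genotypes overlapped at day 0 and were far apart at day 14, every WT library above every ATLD library, with a WT change of 2.75 ± 0.28, an ATLD change of -2.97 ± 0.31 and a difference of -5.72 ± 0.42 (adjusted p = 5.69e-07). Aldh1a1, which makes retinoic acid from retinaldehyde, went from 18, 15.4 and 14 to 104, 83.6 and 96.7 CPM in WT. In ATLD it went from 3.24, 3.16 and 3.39 to 0.613, 0.335 and 0.638 CPM. The days did not overlap in either genotype, and the changes of 2.58 ± 0.16 and -2.62 ± 0.20 differed by -5.20 ± 0.26 (adjusted p = 1.94e-08).

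Sema3b encodes a secreted semaphorin, a guidance cue. It stood at 13.7, 17.5 and 15.5 CPM in WT at day 0 and 45.3, 99.4 and 47.7 CPM at day 14, against 6.73, 4.98 and 5.69 and 1.77, 1.18 and 1.32 CPM in ATLD. The highest WT value at day 14 was that of replicate 2, and the difference was -4.06 ± 0.40 (adjusted p = 8.94e-06). Cdh13, a cadherin anchored to the membrane by a lipid, rose in WT from 3.02, 3.31 and 3.68 to 13.2, 14.4 and 12.5 CPM. In ATLD it fell from 2.14, 1.58 and 1.37 to 0.306, 0.156 and 0.189 CPM. Every WT library at day 14 was above every other library of the 12, and the difference was -4.95 ± 0.32 (adjusted p = 1.71e-07).

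Among those that fell in WT and rose in ATLD, Cxcl14, a chemokine made by epithelia, stood at 6.75, 6.25 and 7.49 CPM in WT at day 0 and at 0.255, 0.119 and 0.294 CPM at day 14. In ATLD it rose from 1.31, 1.09 and 1.17 to 9.52, 8.69 and 9.33 CPM. The order of the genotypes was thus reversed between the days with no overlap at either, and the difference of 7.84 ± 0.29 was the largest of the 8 opposite genes named (adjusted p = 2.94e-09). Smoc1, a secreted calcium-binding matrix protein, fell in WT from 18, 19 and 23.1 to 1.69, 1.81 and 2.18 CPM. In ATLD it rose from 15.4, 12 and 12.4 to 67.8, 84.3 and 68.4 CPM, which gave a difference of 5.87 ± 0.23 (adjusted p = 3.57e-09).

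Col2a1, a fibrillar collagen best known from cartilage, fell in WT from 14.2, 23.1 and 27.2 to 0.855, 3.85 and 1.22 CPM and rose in ATLD from 0.515, 0.267 and 0.174 to 1.36, 1.5 and 2.13 CPM. The genotypes were separate at day 0 and overlapped at day 14, with a difference of 5.83 ± 0.75 (adjusted p = 8.21e-05). Cst3 encodes cystatin C, an inhibitor of cysteine proteases. It fell in WT from 255, 310.2 and 303 to 54.2, 85 and 56.7 CPM and rose in ATLD from 516, 649 and 454 to 1671, 2026 and 2271 CPM, with a difference of 4.03 ± 0.28 (adjusted p = 3.65e-07). ATLD libraries were above all WT libraries at both days for Cst3, and the gap widened.

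**Figure D2:**
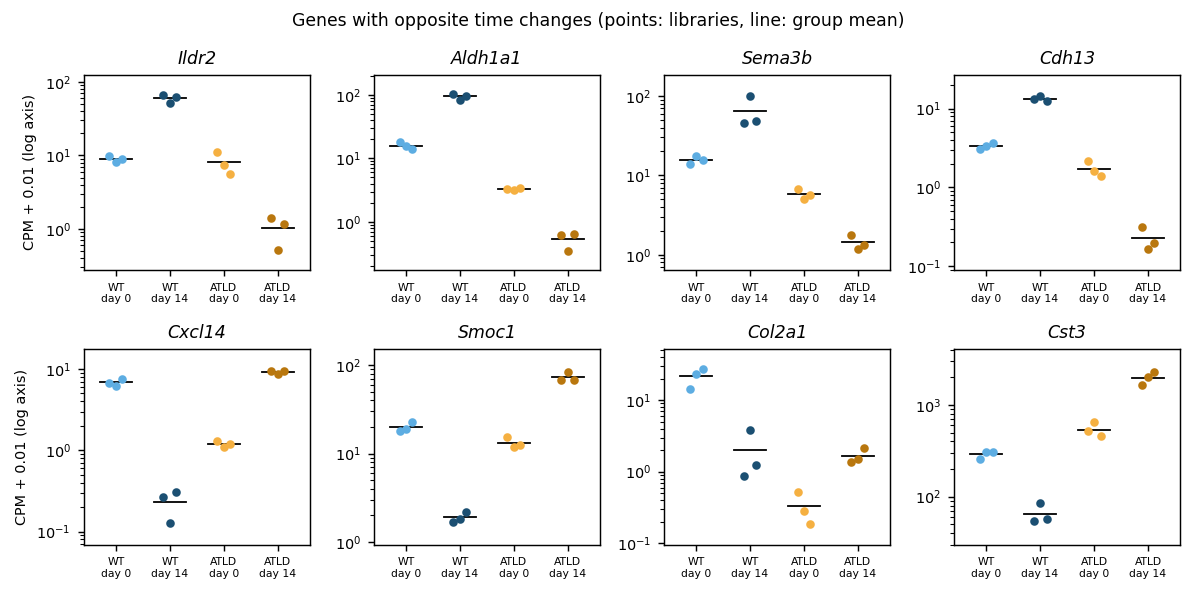
Levels of the 8 opposite genes in the 12 libraries, as CPM plus 0.01 on a log axis, with points for libraries and lines for the mean of the 3 libraries of a group. In the upper row WT rises and ATLD falls, and in the lower row the reverse, with no overlap of the days within a genotype.

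The panels of single libraries show that the days did not overlap in either genotype for any of the 8 genes, which the choice of genes required. Among the WT-specific rises was Stmn2, a microtubule-destabilising protein best known from neurons. It measured 0.104, 0.116 and 0.0628 CPM in WT at day 0 and reached 19.4, 20.2 and 18.5 CPM at day 14. ATLD stood between, at 5.57, 3.78 and 5.52 CPM and 3.52, 3.33 and 4.84 CPM, and its days overlapped. The difference was -8.02 ± 0.34 (adjusted p = 7.23e-09).

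Akr1c18, the 20-alpha-hydroxysteroid dehydrogenase that inactivates progesterone, rose in WT from 0.0621, 0.262 and 0.147 to 5.15, 3.85 and 5.2 CPM. In ATLD the levels were 8.55, 9.72 and 9.84 CPM and 5.6, 5.68 and 6.54 CPM, and the difference was -5.64 ± 0.36 (adjusted p = 1.70e-07). The ATLD change of -0.66 ± 0.20 missed the threshold (adjusted p = 0.0523) while its days did not overlap, and with an offset for GC content it was called and the gene counted as opposite. H19, an imprinted long noncoding RNA, rose in WT from 3.13, 4.33 and 4.58 to 159, 229 and 142 CPM. In ATLD it stayed within 5.27, 4.9 and 3.91 CPM at day 0 and 3.94, 3.4 and 5.57 CPM at day 14, with overlapping days and a difference of -5.59 ± 0.34 (adjusted p = 1.01e-07).

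Among the WT-specific falls was Csn3, the kappa casein of milk. In WT it dropped from 6606, 5643 and 5785 CPM to 20.0, 13.6 and 22.9 CPM. ATLD kept 3961, 4911 and 5645 CPM at day 0 and 2966, 3999.6 and 3593 CPM at day 14, with overlapping days, and at day 14 every ATLD library was far above every WT library. The difference was 7.86 ± 0.31 (adjusted p = 3.58e-09). Piezo2, a mechanically gated ion channel, fell in WT from 12.9, 12.6 and 12.1 to 0.0727, 0.095 and 0.0629 CPM and measured 6.45, 2.83 and 3.0 and 5.18, 3.37 and 3.9 CPM in ATLD, a difference of 7.33 ± 0.51 (adjusted p = 3.96e-07).

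Cdh19, a cadherin of the neural crest and Schwann cell lineage, fell in WT from 10.9, 8.89 and 9.36 to 0.0364, 0.0475 and 0.0419 CPM. In ATLD it measured 16.8, 16.7 and 17.6 CPM and 15.8, 13.4 and 12.7 CPM, and the difference was 7.50 ± 0.26 (adjusted p = 2.01e-09). Cdh19 belongs to a list of 5 Schwann cell markers, of which 4 had a called higher difference (10.1% over all genes) and 1 a called lower one (10.3%), with 3 and 0 within the second batch. The summed level of that list was 139 to 180.2 CPM in WT at day 0, 7.33 to 10.8 CPM in WT at day 14, 382 to 408 CPM in ATLD at day 0 and 362 to 476 CPM in ATLD at day 14. No member was at 0 in an original group, and Cdh19 was at 0 in the resequenced WT run of day 14. Outside WT day 14 most of the sum came from Sox10, a transcription factor that mammary epithelial progenitors also express, chosen for mention after its values were seen, at 121, 158 and 164 CPM in WT at day 0 and 2.91, 6.94 and 3.29 CPM at day 14. Its ATLD levels were 389, 363 and 369.8 and 343, 461 and 425 CPM, and the part of Schwann cells in these results was not tested.

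Among the ATLD-specific rises, Fstl1, a secreted glycoprotein of the follistatin family, rose in ATLD from 6.52, 3.58 and 3.54 to 29.4, 23 and 18.2 CPM. In WT it measured 1.84, 2.96 and 3.12 CPM and 1.73, 1.73 and 1.87 CPM, days that overlapped, and the difference was 2.94 ± 0.39 (adjusted p = 9.78e-05). Megf10, a receptor for engulfment of dead cells, rose in ATLD from 12.6, 8.03 and 4.15 to 61, 48.3 and 51.9 CPM while WT lay at 167, 177 and 181 CPM and 168, 154 and 172 CPM. ATLD thus stayed below WT at both days, and the gap narrowed by 2.79 ± 0.38 (adjusted p = 0.000138). The gene Cpm, which encodes the membrane enzyme carboxypeptidase M, rose in ATLD from 0.515, 0.49 and 0.348 to 2.34, 2.68 and 2.29 CPM (the unit). Its difference was 2.07 ± 0.23 (adjusted p = 2.25e-05), and with the GC offset the small WT change was called too, which placed the gene in the unequal class.

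Klk10, a kallikrein-related protease that overlaps a gene on the other strand, fell in ATLD from 8.88, 8.37 and 12.1 to 1.25, 1.7 and 2.15 CPM and measured 2.94, 3.46 and 2.6 and 3.22, 5.84 and 2.98 CPM in WT, with a difference of -2.95 ± 0.39 (adjusted p = 0.000104). Saa3, an acute-phase serum amyloid, fell in ATLD from 9.33, 18.6 and 11.2 to 2.98, 4.0 and 6.47 CPM, while WT stood at 0.352, 0.32 and 0.377 CPM and 0.60, 0.665 and 0.944 CPM. The WT days of Saa3 did not overlap although its WT change missed the threshold, and the difference of -2.60 ± 0.51 (adjusted p = 0.00232) was not called within the second batch, at -1.93 (adjusted p = 0.188, the highest of all settings, with 1.62e-06 the lowest). Igfbp2, which binds insulin-like growth factors, fell in ATLD from 2.74, 3.49 and 2.72 to 0.875, 1.25 and 1.02 CPM, with 3.64, 6.8 and 4.9 and 4.29, 13.8 and 4.4 CPM in WT. Its difference of -2.06 ± 0.59 (adjusted p = 0.0239) lost its call without WT day 0 replicate 1 or 3, without ATLD day 0 replicate 2 and without ATLD day 14 replicate 1 or 3, over a range of adjusted p from 1.39e-05 to 0.062 in all settings. Klk10 and Igfbp2 counted as opposite with the GC offset.

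**Figure D3:**
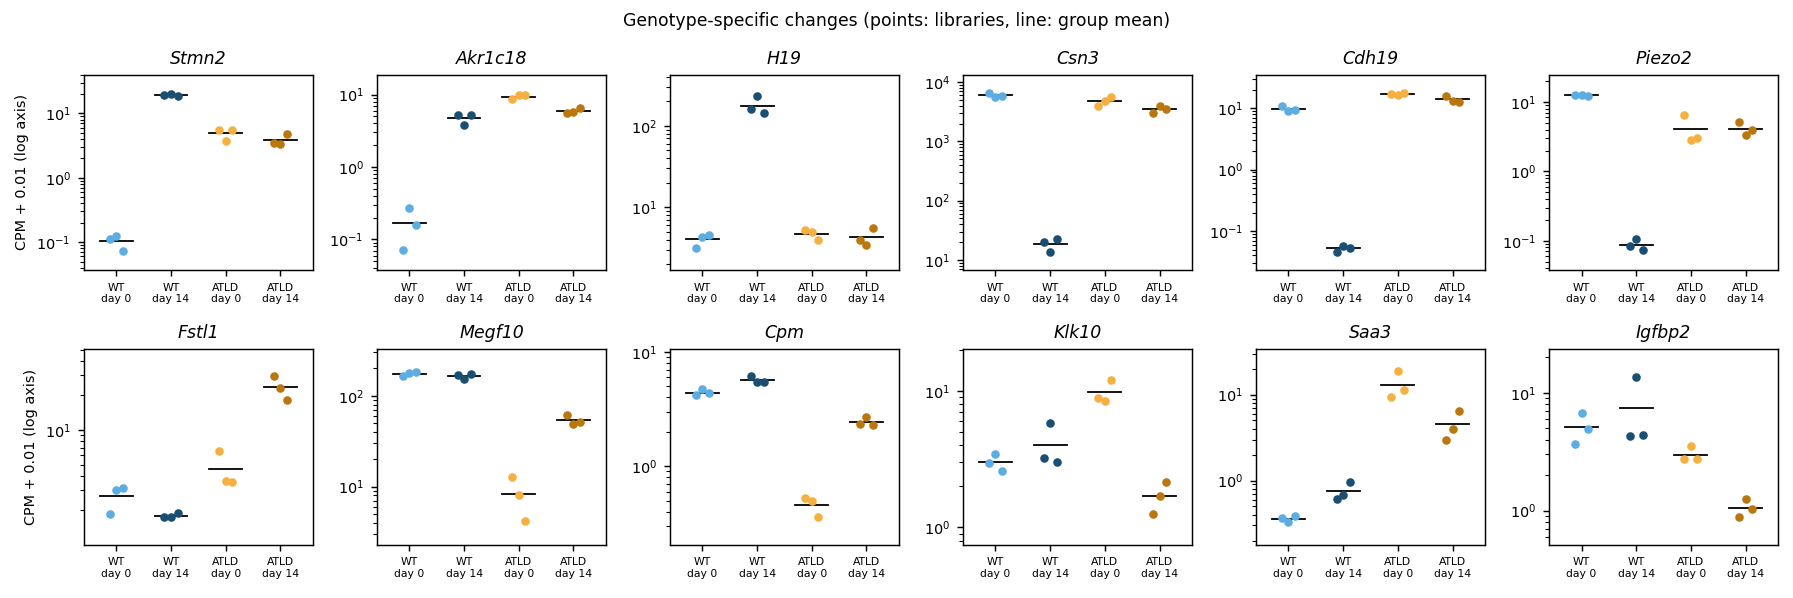
Levels of the 6 WT-specific genes (upper row) and the 6 ATLD-specific genes (lower row) in the 12 libraries, as CPM plus 0.01 on a log axis, with points for libraries and lines for group means. In the upper row the WT points of the days lie far apart and the ATLD points close together, and in the lower row the ATLD points lie apart and the WT points closer.

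In the plots of genotype-specific genes the upper row has its large steps in WT and the lower row in ATLD. Genes that moved the same way by unequal amounts moved farther in WT in 158 of 176 cases. Crispld2, a secreted cysteine-rich protein, fell in WT from 398, 443 and 529.5 to 3.22, 4.47 and 3.52 CPM. In ATLD it fell from 537, 429 and 486 to 331, 329 and 346 CPM, and the changes of -6.94 ± 0.18 and -0.53 ± 0.14 differed by 6.41 ± 0.22 (adjusted p = 2.01e-09). Muc20, a membrane mucin that overlaps Muc4 on the other strand, fell in WT from 87.4, 94.6 and 86.8 to 0.946, 1.09 and 0.713 CPM and in ATLD from 211, 194 and 208 to 120.4, 135 and 105 CPM, a difference of 5.84 ± 0.20 (adjusted p = 2.01e-09). Neither gene had overlapping days in either genotype.

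In 18 of the 176 genes ATLD moved farther. Pde3a, a phosphodiesterase of cyclic nucleotides, rose in WT from 2.26, 1.51 and 1.97 to 50.1, 43.2 and 49 CPM and in ATLD from 0.0214, 0.0223 and 0 to 4.42, 4.96 and 4.23 CPM. ATLD at day 0 held 2 counts over its 3 libraries and 603 at day 14, a ratio of 312 with a 95% counting interval of 86.1 to 2586, so the fitted difference of 3.42 ± 0.51 (adjusted p = 0.000297) rests on few counts. C1qtnf3, a secreted C1q-related protein, rose in ATLD from 9.48, 5.03 and 5.63 to 74, 52.9 and 58.7 CPM and in WT from 0.207, 0.291 and 0.356 to 0.509, 0.641 and 0.734 CPM. Its difference of 2.07 ± 0.45 (adjusted p = 0.0046) was 1.30 and not called within the second batch (adjusted p = 0.571, with 1.38e-05 the lowest of all settings), and the gene counted as ATLD-specific with the GC offset.

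Shared changes without a called difference included 174 rises (0.956%) and 182 falls (1.0%). In 245 of the 356 genes the 95% interval of the difference lay within 1 log2 unit either side of 0, and in the others a larger difference was not resolved. Mmp9, a gelatinase that cleaves basement membrane collagen, rose in WT from 0.435, 1.19 and 0.837 to 35.5, 72.7 and 30.3 CPM. In ATLD it rose from 2.4, 0.935 and 0.782 to 55.5, 54.9 and 49.7 CPM, and the interval of its difference was -1.92 to 0.78. The days did not overlap in either genotype, while the interval holds differences of over 1 log2 unit.

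Acsf2, an acyl-CoA synthetase, rose in WT from 21.8, 25.3 and 24.6 to 195, 276 and 202 CPM and in ATLD from 32.1, 33.2 and 40.4 to 423, 599 and 509 CPM, with a difference of 0.63 ± 0.23 (adjusted p = 0.0755). That difference was called by DESeq2 (adjusted p = 0.0349) and in 7 other settings, over a range from 0.00556 to 0.36, so Acsf2 lies at the border of the unequal class. Chad, the matrix protein chondroadherin, rose in WT from 1.04, 0.872 and 1.44 to 22.1, 41.9 and 23.4 CPM and in ATLD from 1.39, 1.65 and 1.52 to 43.6, 62.4 and 43.3 CPM. Chad (chr11:94565047-94569127, plus strand) lies inside Acsf2 (chr11:94557102-94601871, minus strand), and as the sources used here do not state the strand setting of the counting, the reads of the pair may not have been told apart.

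Among shared falls, Pglyrp1, a peptidoglycan recognition protein, dropped in WT from 2.73, 3.02 and 3.16 to 0.673, 1.09 and 0.566 CPM and in ATLD from 33.2, 43.7 and 41 to 9.03, 10.9 and 12.9 CPM, with an interval of the difference of -0.52 to 0.72. Bhlha15, a transcription factor of secretory cells, dropped in WT from 6.15, 6.25 and 6.07 to 1.93, 1.9 and 1.8 CPM and in ATLD from 3.39, 3.03 and 2.67 to 0.416, 0.827 and 0.567 CPM, with an interval of -1.21 to -0.01. Its difference of -0.61 (adjusted p = 0.151) was called in 1 setting, without ATLD day 14 replicate 2 (adjusted p = 0.0399, against 0.575 at the highest). Fosb, a subunit of the AP-1 factor induced by growth signals, fell from 262, 215 and 339 to 64.6, 77.4 and 61.9 CPM in WT and from 163, 108 and 121 to 46.9, 41.3 and 41.5 CPM in ATLD, with an interval of -0.15 to 0.95. All 3 genes fell with no overlap of days in either genotype.

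Gene lists were read against the background of all genes tested. Mitosis genes fell in ATLD, while in WT nearly none had a called change. All 30 genes of a G2 and mitosis list had a called fall in ATLD (6.05% over all genes) and 1 in WT (14.3%). A called lower difference was found for 24 (10.3% over all genes). The median change was -0.05 in WT and -0.83 in ATLD, and the median difference was -0.74, against -0.06 over all genes. Summed over the list, WT measured 2707, 2558 and 2311 CPM at day 0 and 2558, 2413 and 2431 CPM at day 14. ATLD measured 3323, 3176 and 3741 CPM and then 1966, 2066 and 1812 CPM. WT days overlapped, and ATLD moved from above all WT libraries to below all of them.

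Ccnb1, the cyclin that brings cells into mitosis, went from 72.3, 80.6 and 85.4 to 44.2, 43.9 and 41.9 CPM in ATLD and from 55.7, 52.7 and 46.8 to 58.8, 56.5 and 57 CPM in WT, a difference of -1.02 ± 0.14 (adjusted p = 0.000148). Bub1b, a spindle checkpoint kinase, had a difference of -0.98 ± 0.17 (adjusted p = 0.000928), and Anln, the contractile ring protein anillin, one of -0.93 ± 0.15 (adjusted p = 0.000466). Within the second batch the median difference of the list was -0.56 and 0 of 30 members had a called difference, with 1 WT run per day. The GC offset gave 28 lower calls and the resequenced runs 19.

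The promoters of these genes are shown because cell cycle genes of late phases share a known arrangement of 2 short elements, the CCAAT box bound by the factor NF-Y and the cell cycle genes homology region (CHR) bound by the DREAM and MuvB complexes. The 3 sequences are from list members with large called differences, and not every list member was considered. Each window was required to hold both the CHR letters TTTGAA and the CCAAT letters, on either strand. Each runs from 120 bases before to 30 bases after the transcription start given by RefSeq for GRCm38.p6, 5′ to 3′ on the strand of the gene, with the CHR letters and the CCAAT letters (or ATTGG on the other strand) in capitals. Hmmr encodes a spindle-associated hyaluronan receptor (chr11:40733408-40733557, minus strand), Ect2 the exchange factor that starts cytokinesis (chr3:27153825-27153974, minus strand), and Cenpa the centromeric histone (chr5:30666766-30666915, plus strand).
Hmmr: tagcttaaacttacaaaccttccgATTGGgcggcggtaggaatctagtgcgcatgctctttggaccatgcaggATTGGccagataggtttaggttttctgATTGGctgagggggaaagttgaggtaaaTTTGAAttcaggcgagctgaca
Ect2: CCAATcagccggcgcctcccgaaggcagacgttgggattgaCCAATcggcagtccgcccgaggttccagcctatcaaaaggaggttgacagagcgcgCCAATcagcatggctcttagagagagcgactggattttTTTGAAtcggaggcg
Cenpa: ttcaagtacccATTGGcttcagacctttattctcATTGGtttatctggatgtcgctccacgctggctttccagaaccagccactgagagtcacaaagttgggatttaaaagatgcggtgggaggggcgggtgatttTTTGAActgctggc

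In all 3 windows, which were chosen to hold both elements, the CHR letters lie near the start site, downstream of the CCAAT letters. RefSeq promoters of 250 bases before to 50 after a start were found for 26 of the 30 list genes. TTTGAA or its reverse complement lay in 22 of their 28 promoters (78.6%), against 12.5% of 15210 promoters of 11931 tested genes. CCAAT or its reverse complement lay in 82.1% against 37.3%. Of 26 promoters of 24 genes of the S phase list, 11.5% held TTTGAA and 65.4% CCAAT. Hmmr itself measured 68.7, 59.8 and 54.6 and 67, 52.7 and 65.8 CPM in WT, and 87, 83 and 105 and 48.3, 51.5 and 46.4 CPM in ATLD, with a difference of -0.93 ± 0.19 (adjusted p = 0.00268). Ect2 and Cenpa had differences of -0.93 ± 0.16 and -0.92 ± 0.18 (adjusted p = 0.000856 and 0.00229), and in all 3 genes the ATLD days did not overlap while the WT days did.

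Replication genes had more called falls in ATLD than in WT, and most had no called difference. Of 30 S phase genes, 24 had a called fall in ATLD (6.05% over all genes) and 6 in WT (14.3%), with medians of -0.72 and -0.28. A lower difference was called for 7 (10.3%), and 23 were not called. Summed levels fell in WT from 1854, 1847 and 1742 to 1472.5, 1728 and 1448 CPM. In ATLD they fell from 2644, 2811 and 3159 to 1706, 1921 and 1761 CPM, and the days did not overlap in either genotype. Rrm2, the small subunit of ribonucleotide reductase, fell in ATLD from 96, 102 and 123 to 50.7, 54.1 and 52.2 CPM and measured 86.8, 80.3 and 75 and 75.3, 75.2 and 74 CPM in WT, a difference of -0.93 ± 0.15 (adjusted p = 0.000583). Ccne1, the cyclin of S phase entry, and Gins1, a subunit of the replicative helicase, had differences of -0.87 ± 0.15 and -0.86 ± 0.16 (adjusted p = 0.00121 and 0.00172). The count of 7 fell to 3 without ATLD day 0 replicate 3 or ATLD day 14 replicate 3, to 4 without WT day 0 replicate 3 and to 0 within the second batch, and rose to 11 lower and 2 higher without WT day 14 replicate 2.

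Most genes of DNA repair had no called difference. Of 29 break repair genes, 19 fell in ATLD (6.05% over all genes), and in WT 10 fell (14.3%) and 3 rose (15.2%). A called lower difference was found for 8 (10.3%) and a higher one for 0 (10.1%), and the other 21 were not called. Rad51b, a protein of homologous recombination, rose in WT from 5.67, 5.81 and 5.32 to 18.9, 15.6 and 19.5 CPM and measured 7.16, 8.41 and 7.86 and 6.34, 5.7 and 6.09 CPM in ATLD, a difference of -2.06 ± 0.18 (adjusted p = 2.51e-06). Rbbp8, which encodes CtIP, the partner of the Mre11 complex in end resection, moved in opposite directions, from 74.6, 67.1 and 67.8 to 159.8, 113 and 160.2 CPM in WT and from 59.2, 62 and 65.2 to 49.4, 42 and 42 CPM in ATLD (difference -1.53 ± 0.19, adjusted p = 6.42e-05). The count of 8 was 4 without ATLD day 14 replicate 3, 5 without WT day 0 replicate 2 or 3, WT day 14 replicate 1 or ATLD day 0 replicate 3, 4 with the resequenced runs, 5 without the filter and 2 within the second batch. Of 15 genes of the Mre11 complex and damage signalling, 2 had a called lower difference (10.3% over all genes), Topbp1, which activates the kinase ATR, at -0.88 ± 0.16 and the checkpoint kinase Chek2 at -0.58 ± 0.16 (adjusted p = 0.00125 and 0.0238). Chek2 was called in 12 of 23 other settings, and its adjusted p was 0.137 without ATLD day 0 replicate 3, 0.134 without ATLD day 14 replicate 2, 0.126 with the resequenced runs and 0.507 within the second batch, the highest. Its call was also lost without WT day 0 replicate 2 or 3, WT day 14 replicate 1, ATLD day 0 replicate 2 or ATLD day 14 replicate 3. Topbp1 lost its call within the second batch alone (adjusted p = 0.185, the highest of its settings, with 1.30e-05 the lowest). The count of 2 was 7 without WT day 14 replicate 2 and 0 within the second batch. Both genes fell in ATLD. The lists of repair and damage signalling hold genes whose RNA also follows the cell cycle, and its part in these values was not tested.

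Luminal progenitor genes fell in WT and had no common direction in ATLD. Of 15 genes tested, 13 fell in WT (14.3% over all genes), and in ATLD 3 rose (4.6%) and 2 fell (6.05%). A called higher difference was found for 13 (10.1% over all genes) and a lower one for 0, with medians of -3.13 in WT, -0.07 in ATLD and 3.02 for the difference. Summed levels in WT were 15414, 15025 and 15315 CPM at day 0 and 1649, 1890.5 and 1711 CPM at day 14. In ATLD they were 25724, 30690.0 and 30176 CPM and 23816, 28295 and 27392 CPM, with overlapping days. In bulk samples fewer cells of a type and less RNA per cell cannot be told apart.

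Lcn2, the iron-scavenging lipocalin of luminal cells, went from 2650.4, 2943 and 3208 CPM to 131, 156 and 138 CPM in WT. ATLD rose from 4499.7, 5779 and 5635 CPM to 6644, 8852 and 8399 CPM, which makes it an opposite gene with a difference of 4.96 ± 0.22 (adjusted p = 1.00e-08). Elf5, the transcription factor of luminal progenitors and alveolar cells, was chosen for mention after its values were seen. It stood at 276, 264 and 262 CPM and 14.1, 10.5 and 15.8 CPM in WT and at 559, 615 and 685 CPM and 489, 536 and 500.0 CPM in ATLD, a difference of 4.02 ± 0.20 (adjusted p = 1.95e-08). Kit, the stem cell factor receptor, likewise chosen, differed by 2.77 ± 0.24 (adjusted p = 3.06e-06). The counts were 11 higher and 0 lower within the second batch and 14 and 0 with the GC offset, and without WT day 14 replicate 2 they were 14 and 1. The list shares Cd14 with a list of 12 myeloid markers, whose summed level was 132 to 166 CPM and 19.9 to 25.2 CPM in WT at day 0 and day 14, 279 to 311 CPM in ATLD at day 0 and 295 to 391 CPM in ATLD at day 14. Of that sum Cd14 held most, and Ptprc, C1qa, C1qb, C1qc and Itgam were at 0 in the ATLD libraries of both days. Ptprc, C1qa, C1qb and C1qc were also at 0 in the resequenced WT runs of both days, and Itgam in that of day 14.

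Milk genes, a list that shares Csn3, Lalba, Mfge8 and Wfdc18 with the progenitor list, also fell in WT. Of 13 tested, 12 fell (14.3% over all genes) and 1 rose (15.2%) in WT, with a median of -3.65. In ATLD 5 fell (6.05%) and 2 rose (4.6%), with a median of -0.46. A called higher difference was found for 9 (10.1% over all genes) and a lower one for 0 (10.3%). Lalba, the alpha-lactalbumin of lactose synthesis, measured 3.33, 1.98 and 3.29 and 0.255, 0.119 and 0.273 CPM in WT and 0.15, 0.134 and 0.282 and 0.153, 0.469 and 0.496 CPM in ATLD, a difference of 4.66 ± 0.63 (adjusted p = 0.000134). Csn1s2a, an alpha casein, had 40 counts over the WT libraries of day 0 and 0 at day 14, at least 14.8-fold lower with a floor of 3 counts over the group. The 1 gene that rose in WT was Spp1, which encodes the secreted phosphoprotein osteopontin and was chosen for mention after its values were seen. It also rose in ATLD, from 206, 180.3 and 229 to 1399, 1748 and 1810.0 CPM against 157, 157 and 197 to 1695, 1424 and 1585 CPM in WT, with an interval of the difference of -0.63 to 0.25.

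Squamous genes rose in WT and not as a group in ATLD. Of 18 genes of epidermal differentiation tested, 14 rose (15.2% over all genes) and 0 fell (14.3%) in WT. In ATLD 2 rose (4.6%) and 5 fell (6.05%). A called lower difference was found for 11 (10.3% over all genes) and a higher one for 0, with medians of 2.3 in WT, -0.18 in ATLD and -2.40 for the difference. Summed levels in WT were 959, 1035 and 1079.9 CPM at day 0 and 2014, 2330.3 and 1975 CPM at day 14. In ATLD they were 697, 589 and 594 CPM and 752, 751 and 749.7 CPM, all below the WT libraries, and the sum was higher at day 14 although the median change was below 0.

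Krtdap, a secreted protein of differentiating keratinocytes, rose in WT from 0.166, 0.116 and 0.126 to 2.0, 1.47 and 1.55 CPM and fell in ATLD from 0.943, 1.27 and 0.847 to 0.175, 0.067 and 0.26 CPM, a difference of -6.18 ± 0.49 (adjusted p = 1.10e-06). Sprr1b, a cornified envelope precursor, and Krt6b, a keratin of stressed epidermis, had differences of -6.59 ± 0.76 and -5.16 ± 0.82 (adjusted p = 3.31e-05 and 0.000463). Krt6b measured 0.0207, 0.0581 and 0.0419 CPM in WT at day 0 and 1.13, 2.11 and 0.965 CPM at day 14, a low level, and both genes have close paralogs with which they may share reads. Krt16, chosen after its values were seen as a member with higher levels, went from 1.43, 1.57 and 1.86 to 22.4, 36.1 and 20.9 CPM in WT and from 3.86, 4.25 and 3.65 to 1.75, 1.99 and 2.03 CPM in ATLD (difference -5.05 ± 0.30, adjusted p = 8.90e-08). The lower calls numbered 10 within the second batch and 12 with the GC offset.

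Basal genes had called differences in both directions. Of 20 tested, 5 had a called higher (10.1% over all genes) and 7 a called lower difference (10.3%), and 8 were not called. Of the contractile genes, Acta2, smooth muscle actin, fell in WT from 270.0, 293 and 275 to 8.29, 13.1 and 10.5 CPM and in ATLD from 227, 249.7 and 254 to 93, 78.4 and 90.9 CPM, a difference of 3.24 ± 0.21 (adjusted p = 1.65e-07). Tagln, an actin-binding protein that overlaps Pcsk7 on the other strand, and Cnn1, calponin, had differences of 3.56 ± 0.26 and 2.61 ± 0.34 (adjusted p = 6.81e-07 and 9.62e-05). Krt5 and Trp63, the basal keratin and the basal transcription factor p63, were chosen after their values were seen as members with lower differences. Krt5 went from 735, 960.0 and 1004 to 1957, 4122 and 1896 CPM in WT and from 1672, 1486 and 1700.3 to 1028, 1022 and 961 CPM in ATLD, and WT day 14 replicate 2 was the highest library. The differences were -2.25 ± 0.35 for Krt5 and -1.54 ± 0.19 for Trp63 (adjusted p = 0.00044 and 6.92e-05).

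Genes of the hypoxia response and of glycolysis rose in WT. Of 20 tested, 18 rose (15.2% over all genes) and 0 fell (14.3%) in WT, and 4 rose (4.6%) and 2 fell (6.05%) in ATLD. A called lower difference was found for 12 (10.3% over all genes) and a higher one for 0, with medians of 1.32, 0.14 and -1.55 in WT, in ATLD and for the difference. Summed levels in WT were 3460.3, 4010.2 and 4108 CPM at day 0 and 6716, 10623 and 6384 CPM at day 14, where replicate 2 was the highest. In ATLD they were 6019, 6661 and 6718 CPM and 6039.7, 7409.5 and 7367 CPM, with overlapping days. The resequenced WT runs summed to 4443 and 11000.0 CPM at day 0 and day 14, and 14 lower differences were called within the second batch and 18 with the GC offset.

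Vegfa, the growth factor of blood vessels, rose in WT from 14, 15.5 and 15.4 to 220.3, 305 and 211 CPM. ATLD measured 29.9, 25.6 and 24.8 CPM and 24, 28 and 26.1 CPM, with overlapping days, and the difference was -4.08 ± 0.21 (adjusted p = 2.15e-08). Bnip3, a mitophagy receptor, rose in WT from 7.35, 8.34 and 7.66 to 98.3, 79.4 and 93.3 CPM and measured 10.7, 13.5 and 7.13 and 14, 12 and 20.1 CPM in ATLD (difference -2.98 ± 0.32, adjusted p = 1.68e-05). Ndufa4l2, a mitochondrial protein induced by the hypoxia factor HIF-1, went in WT from 0.0621, 0.0291 and 0.314 to 90.9, 198 and 86.5 CPM, with 1.5, 0.601 and 0.348 and 0.525, 0.939 and 1.79 CPM in ATLD. The WT days of Vegfa, Bnip3 and Ndufa4l2 did not overlap, and the 3 genes had no called ATLD change.

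Promoters of 3 list members are shown because the hypoxia-inducible factors bind the hypoxia response element, whose core letters are ACGTG. They are the members with the largest called differences whose window holds those letters on either strand, given as above with that core, read on either strand, in capitals. The genes are Bnip3 (chr7:138909477-138909626, minus strand), Ankrd37, an ankyrin repeat protein (chr8:45999821-45999970, minus strand), and P4ha1, the catalytic subunit of collagen prolyl hydroxylase (chr10:59323176-59323325, plus strand), in GRCm38.p6.
Bnip3: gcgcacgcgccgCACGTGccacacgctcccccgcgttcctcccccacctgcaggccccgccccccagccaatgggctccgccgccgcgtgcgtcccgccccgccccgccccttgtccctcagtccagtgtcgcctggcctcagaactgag
Ankrd37: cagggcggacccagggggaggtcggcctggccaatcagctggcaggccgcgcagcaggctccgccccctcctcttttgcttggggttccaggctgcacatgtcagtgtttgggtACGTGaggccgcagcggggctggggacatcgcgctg
P4ha1: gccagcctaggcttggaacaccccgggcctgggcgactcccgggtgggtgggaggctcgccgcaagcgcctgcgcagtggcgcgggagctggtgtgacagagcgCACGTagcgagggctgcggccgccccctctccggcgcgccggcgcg

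In Bnip3 the letters of both strands overlap as a palindrome. ACGTG or its reverse complement lay in 14 of 26 promoters (53.8%) of 18 list genes, against 23.9% of the 15210 promoters, and in 28.6% of those of the G2 and mitosis list. P4ha1 rose in both genotypes, from 23.1, 23.5 and 24.1 to 166, 149 and 165 CPM in WT and from 24.3, 17.8 and 19.7 to 36.8, 37 and 28.5 CPM in ATLD, with a difference of -2.03 ± 0.19 (adjusted p = 4.75e-06). Ankrd37 had a difference of -2.90 ± 0.37 (adjusted p = 7.70e-05).

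**Figure D4:**
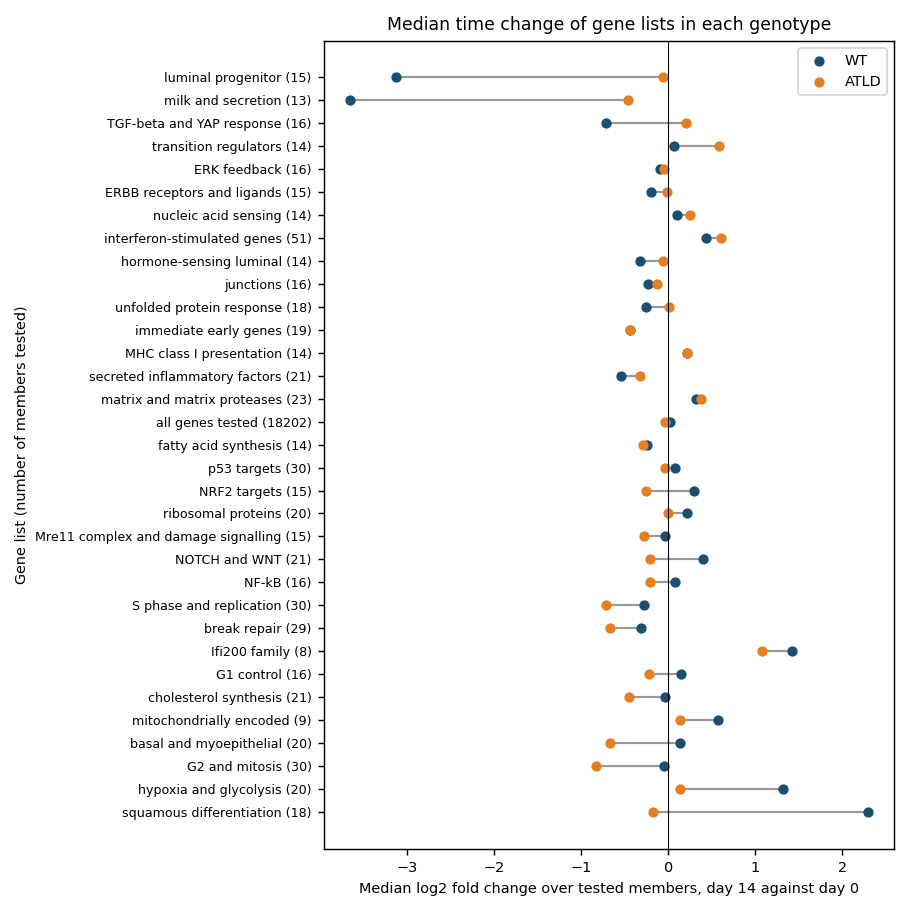
Median log2 change from day 0 to day 14 over the tested members of each gene list, WT in dark blue and ATLD in orange, ordered by the median difference, with all genes tested as 1 of the lines. Luminal progenitor and milk genes sit far to the left in WT (-3.13 and -3.65), squamous and hypoxia genes to the right in WT (2.3 and 1.32), and G2 and mitosis genes to the left in ATLD (-0.83).

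The ordered plot of list medians gives the interferon-stimulated genes a median difference of 0.28, against -0.06 for all genes. Of 51 tested, 21 rose (15.2% over all genes) and 7 fell (14.3%) in WT, and 23 rose (4.6%) and 0 fell (6.05%) in ATLD, with medians of 0.43 and 0.60. The WT counts were 5 rises and 7 falls within the second batch, and 7 and 12 with only WT day 14 replicate 2 kept at that day. A called higher difference was found for 9 (10.1%) and a lower one for 1 (10.3%). Oasl1, Epsti1 and Rsad2, the antiviral protein viperin, fell in WT and had no called ATLD change. Rsad2 went from 3.91, 2.53 and 4.79 to 1.11, 0.831 and 1.95 CPM in WT and measured 23.2, 9.15 and 13.5 and 13.5, 22.2 and 19.5 CPM in ATLD, a difference of 1.80 ± 0.52 (adjusted p = 0.0269). That call was lost without WT day 0 replicate 1 or 3, WT day 14 replicate 1 or ATLD day 14 replicate 2 and within the second batch, over a range of adjusted p from 5.07e-05 to 0.134 in all settings. For Oasl1 and Epsti1 the differences were 2.34 ± 0.32 and 2.3 ± 0.25 (adjusted p = 0.000136 and 2.14e-05).

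Isg15, a ubiquitin-like protein, and Irf7, the regulator of interferon genes, were chosen for mention after their values were seen. Isg15 rose in ATLD from 85.4, 77.3 and 61.5 to 139, 207 and 253 CPM and measured 11.8, 11.1 and 18.2 and 16.1, 22.8 and 23 CPM in WT, and its difference of 0.83 ± 0.34 missed the threshold (adjusted p = 0.113). Irf7 had a called difference of 1.25 ± 0.35 (adjusted p = 0.0224). The 9 higher calls became 5 without WT day 0 replicate 3 or WT day 14 replicate 1, 14 without WT day 14 replicate 3, 19 with only WT day 14 replicate 2 kept at that day, 17 without the filter, 15 with the batch term, 14 with the GC offset and 9 within the second batch. Of 8 genes of the Ifi200 family, 6 rose in WT (15.2% over all genes) and 5 in ATLD (4.6%). A higher difference was called for 1 (10.1%) and a lower one for 2 (10.3%), and a list of 8 is too short to set against those shares. The median difference of the list was -0.41, and 0.27 within the second batch. Ifi205 and Ifi202b rose in both, farther in WT (-2.07 ± 0.39 and -1.42 ± 0.22), and Ifi204, a DNA sensor, rose in ATLD (1.14 ± 0.30), with adjusted p of 0.00173, 0.000408 and 0.0163. Ifi205 was not called within the second batch (adjusted p = 0.0828, against 2.51e-05 at the lowest). These paralogs are similar in sequence, so reads may be split between them.

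Genes that respond to TGF-beta and YAP had 10 called higher (10.1% over all genes) and 3 called lower (10.3%) differences of 16. WT had 9 falls (14.3%) and 3 rises (15.2%), and ATLD 6 rises (4.6%) and 2 falls (6.05%). Id1, an inhibitor of differentiation factors, fell in WT from 8.53, 8.34 and 8.41 to 2.02, 2.97 and 1.51 CPM and rose in ATLD from 7.14, 5.67 and 4.74 to 11.4, 15.7 and 18.8 CPM, a difference of 3.35 ± 0.34 (adjusted p = 1.13e-05). Ankrd1, a YAP target, fell in WT from 5.94, 5.67 and 5.8 to 0.0909, 0.143 and 0.0419 CPM and measured 33.4, 27.3 and 26.9 and 23.6, 23.1 and 28.6 CPM in ATLD (difference 5.75 ± 0.30, adjusted p = 2.72e-08). Tgfb3, one of the ligands, which overlaps Ttll5 on the other strand, was an opposite gene with 2.67 ± 0.20 (adjusted p = 7.97e-07). Among 16 genes of ERK feedback, 6 had a called higher (10.1%) and 1 a called lower difference (10.3%), and with the GC offset or with only WT day 14 replicate 2 kept at that day 4 were lower. Members named by the size of their difference were the transcription factor Etv1 at 5.22 ± 0.24 and the inhibitor Spry4 at 4.41 ± 0.24 (adjusted p = 1.18e-08 and 3.50e-08). Etv1 stood at 39.1, 35 and 40.4 CPM in WT at day 0 and at 1.35, 0.76 and 1.24 CPM at day 14, while ATLD lay at 6.6, 6.96 and 6.1 and 6.58, 7.62 and 7.49 CPM.

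NOTCH and WNT genes held opposite members in both senses. Of 21 tested, 5 had a higher (10.1% over all genes) and 7 a lower difference (10.3%), with 3 and 6 within the second batch. Hey2, a NOTCH target, fell in WT from 9.32, 9.76 and 9.36 to 0.928, 0.998 and 1.17 CPM and rose in ATLD from 8.53, 7.97 and 8.02 to 18.4, 18.4 and 15.4 CPM (difference 4.29 ± 0.18, adjusted p = 7.23e-09). Axin2, a feedback inhibitor of WNT signalling, rose in WT from 3.15, 3.63 and 3.54 to 10.1, 21.2 and 9.1 CPM and fell in ATLD from 9.48, 7.37 and 6.06 to 2.14, 1.54 and 1.72 CPM (difference -4.05 ± 0.42, adjusted p = 1.33e-05). Ccnd2, cyclin D2 of the G1 list, rose in WT from 53.4, 64.9 and 57.3 to 335, 361 and 337 CPM and fell in ATLD from 137, 98.2 and 72.9 to 72.4, 45.2 and 66.2 CPM, a difference of -3.30 ± 0.30 (adjusted p = 4.42e-06). That list of 16 had 1 higher (10.1%) and 5 lower (10.3%) differences, the latter 3 without WT day 0 replicate 3 or ATLD day 14 replicate 2 or 3 and 9 with only WT day 14 replicate 2 kept at that day.

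Secreted inflammatory factors also split, with 6 higher (10.1% over all genes) and 6 lower (10.3%) of 21. Il6, a cytokine, fell in WT from 0.166, 0.174 and 0.126 to 0.0364, 0.0713 and 0.0629 CPM and rose in ATLD from 0.257, 0.178 and 0.217 to 2.08, 2.32 and 2.38 CPM, a difference of 4.79 ± 0.45 (adjusted p = 4.90e-06). Il1a, another cytokine, rose in WT from 0.0828, 0.262 and 0.23 to 3.13, 2.71 and 3.61 CPM and had a difference of -4.76 ± 0.61 (adjusted p = 7.64e-05). These levels are low. Among 30 p53 targets, 2 had a higher (10.1%) and 6 a lower difference (10.3%). These were 1 and 4 without any 1 of the WT day 0 libraries, ATLD day 0 replicate 3 or ATLD day 14 replicate 3, 1 and 5 without replicate 1 of either ATLD day, 5 and 9 without WT day 14 replicate 2, 4 and 9 with the GC offset and 1 and 4 within the second batch. Gadd45a, a growth arrest gene, fell in WT from 8.03, 7.5 and 6.93 to 4.31, 4.25 and 4.59 CPM and rose in ATLD from 7.25, 8.17 and 7.89 to 20.1, 23.2 and 21.6 CPM (2.25 ± 0.16, adjusted p = 5.43e-07). Pmaip1, the death inducer NOXA, rose in WT from 3.02, 4.1 and 3.18 to 23.5, 19.8 and 23.4 CPM and measured 5.94, 5.5 and 5.54 and 7.31, 5.9 and 5.86 CPM in ATLD (-2.53 ± 0.21, adjusted p = 1.83e-06).

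Matrix and transition genes included members that fell in WT and members that rose in ATLD. Of 23 matrix genes, 5 were higher (10.1% over all genes) and 2 lower (10.3%), and of 14 transition regulators, 5 and 1. Within the second batch the counts were 2 and 0, and 4 and 2. The 2 lower matrix calls were 0 without any 1 of the WT day 0 libraries, ATLD day 0 replicate 1 or 2 or ATLD day 14 replicate 2 or 3, and 1 without WT day 14 replicate 1. Fn1, fibronectin, fell in WT from 77.1, 127 and 134 to 7.04, 9.53 and 6.31 CPM and measured 164, 85.3 and 44.6 and 229.6, 125 and 207 CPM in ATLD, a difference of 4.82 ± 0.58 (adjusted p = 4.25e-05). Col1a1, a collagen chain, rose in ATLD from 1.07, 0.49 and 0.391 to 1.99, 1.85 and 2.83 CPM (2.32 ± 0.52, adjusted p = 0.00625), and Snai1, a transition factor, from 0.257, 0.512 and 0.239 to 0.941, 1.41 and 1.58 CPM (2.85 ± 0.56, adjusted p = 0.00254). Within the second batch Col1a1 was not called (adjusted p = 0.182, the highest of its settings, with 8.34e-06 the lowest), and its WT change was 0.35 there against -0.55 in the original libraries. Of 13 fibroblast markers, 8 were tested, with 4 higher (10.1% over all genes) and 1 lower difference (10.3%). The median difference of the 8 was 0.91, and 0.73 within the second batch. Their summed level was 954 to 1029.8 CPM in WT at day 0, 1261 to 2470.2 CPM in WT at day 14, 528 to 687 CPM in ATLD at day 0 and 847 to 1235 CPM in ATLD at day 14, most of it Postn. Lum was at 0 in ATLD at both days, Col3a1 in ATLD at day 0 and Dpt in WT at day 14. In the resequenced WT runs Col3a1 and Dpt were at 0 at both days and Lum at day 0. The part of fibroblasts in the matrix result was not tested.

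Among metabolic genes, lower differences were found in the sterol pathway. Of 21 cholesterol synthesis genes, 2 had a higher (10.1% over all genes) and 9 a lower difference (10.3%). ATLD had 10 falls (6.05%), and WT 5 rises (15.2%) and 3 falls (14.3%). Idi1, an isomerase of the pathway, rose in WT from 28.7, 28.3 and 24.4 to 87.6, 59.6 and 84.4 CPM and measured 43.3, 54.5 and 52.4 and 43.6, 35.8 and 43.2 CPM in ATLD (-1.80 ± 0.22, adjusted p = 5.31e-05). Dhcr7, the last reductase of the pathway, had a difference of 1.0 ± 0.19 (adjusted p = 0.002). The lower count was 5 without ATLD day 0 replicate 2 or 3 or ATLD day 14 replicate 2 or 3 or with the resequenced runs, and 1 within the second batch, where Dhcr7 was not called (adjusted p = 0.0541, the highest of its settings, with 2.35e-06 the lowest). Gsta4, a glutathione transferase of the NRF2 list, was opposite, from 8.8, 10.2 and 8.23 to 103, 91.8 and 96.2 CPM in WT and from 22.8, 32.2 and 32.7 to 10.2, 9.36 and 12.1 CPM in ATLD (-4.89 ± 0.23, adjusted p = 1.17e-08). Its list of 15 had 4 higher (10.1% over all genes) and 4 lower (10.3%) differences.

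**Figure D5:**
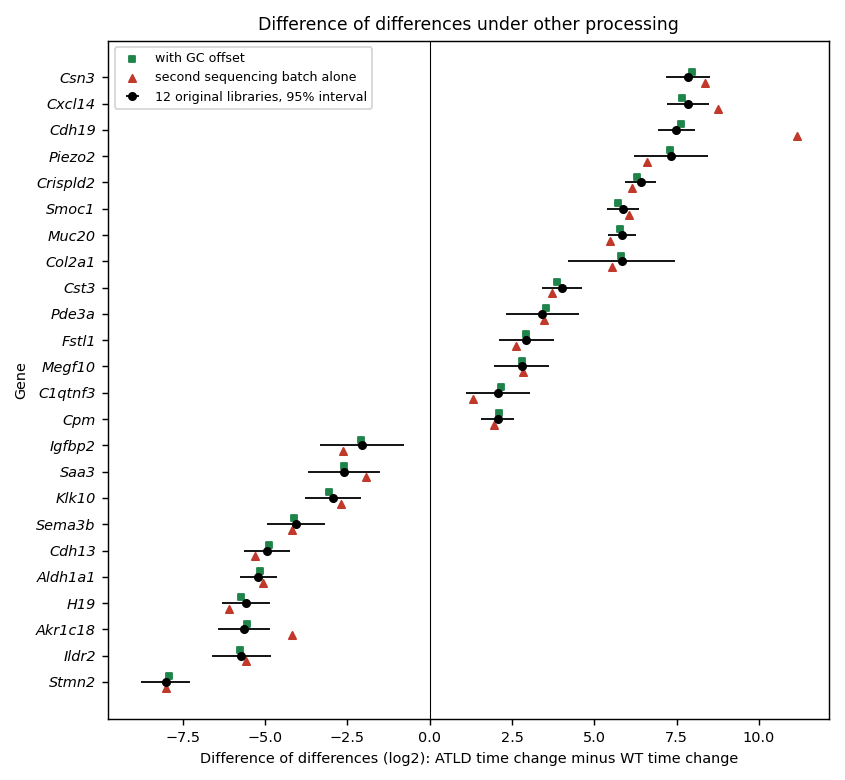
Difference of differences of 24 named genes, with black points and 95% intervals from the 12 original libraries, green squares with a GC offset and red triangles from the second sequencing batch alone, which has 1 WT run per day. The squares lie inside or at the edge of the intervals, and Cdh19, with 0 counts in the resequenced WT run of day 14, has a triangle whose position depends on the prior count of the fit.

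The plot of alternative values shows the same sign for each gene in all 3 sets, which the choice of genes required for the second batch. Over all genes, 3646 of the 3723 called differences were called with the same sign with the GC offset and 0 changed sign, and 3198 were called with the same sign with the resequenced runs in place of WT replicate 1. Of the 609 opposite genes 590 kept that class with the GC offset, as did 1875 of 2250 WT-specific, 378 of 447 ATLD-specific, 170 of 176 unequal and 309 of 356 shared genes.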

How the data were processed

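Polyadenylated RNA of 12 mouse mammary organoid libraries was compared, and the authors deposited raw counts per gene for 55536 Ensembl gene IDs, without normalization, made from libraries of a stranded kit per the labels' protocols. Per the submitters' processing notes reads were assigned with featureCounts on mm10. The sources used here name no versions, aligner or strand setting. A deposited column of another kind, per the file headers, holds gene length and was not used. Low-count genes were dropped by filterByExpr at a minimum count of 10 and a total of 15. Libraries of 30905703 to 50879106 counts were scaled by TMM, and edgeR 4.0.16 under R 4.3.3 fitted quasi-likelihood F tests, two-sided, to 4 group means (8 residual degrees of freedom) for 18202 genes, calling genes whose Benjamini-Hochberg adjusted p was under 0.05. Fitted changes used a prior count of 0.125. The SE is the absolute log2 change divided by the square root of its F statistic. Intervals of differences are 95% and were built from that SE. Intervals of ratios and floors of 3 counts cover counting error only. GC content came from transcripts of GENCODE vM21, whose gene IDs and ends matched all 55536 IDs. The gap between genotypes used log2 of the mean CPM plus 0.1.

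Members and gene lists were chosen with earlier results of these data known. Named genes had a mean log2 CPM of at least 1, no predicted, clone or Rik symbol, days without overlap in each genotype with a called change, and a value of the same sign within the second batch, which therefore supports nothing. They were ranked by the smaller time change (4 and 4 opposite, 3 and 3 shared) or by the difference (3 and 3 for each genotype-specific class, 2 and 2 unequal, and up to 3 called members of each list), with Mre11a and Erbb2 added, and a gene so ranked may not be reported here. Promoters were taken from RefSeq for GRCm38.p6, and the pipeline was tested on simulated data. Alternatives were DESeq2 1.42.0, its size factors in edgeR, an unfiltered table, 18 libraries, a replicate block, resequenced runs, a batch term, the second batch alone, offsets for GC content, a fit with only replicate 2 at WT day 14, a larger change, and leaving out each library.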

Additional observations from a re-analysis of the deposited data

Results flagged for a closer look

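The test of the difference between the genotypes' time changes itself picked out 3723 genes and, among them, 24 named above, and no cause was tested for any. For genes with opposite changes the difference of differences in log2 units was -5.72 for Ildr2, -5.20 for Aldh1a1, -4.06 for Sema3b and -4.95 for Cdh13, which rose in WT and fell in ATLD. It was 7.84 for Cxcl14, 5.87 for Smoc1, 5.83 for Col2a1 and 4.03 for Cst3, which fell in WT and rose in ATLD. WT-specific rises gave -8.02 for Stmn2, -5.64 for Akr1c18 and -5.59 for H19, and WT-specific falls 7.86 for Csn3, 7.50 for Cdh19 and 7.33 for Piezo2. ATLD-specific rises gave 2.94 for Fstl1, 2.79 for Megf10 and 2.07 for the gene Cpm, and ATLD-specific falls -2.95 for Klk10, -2.60 for Saa3 and -2.06 for Igfbp2. Unequal changes of the same sign gave 6.41 for Crispld2, 5.84 for Muc20, 3.42 for Pde3a and 2.07 for C1qtnf3. All 24 kept their sign in every setting run, which the choice of genes required for the second batch. Saa3, Igfbp2 and C1qtnf3 lost their call in at least 1 setting.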

How the results depend on the processing

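No named gene with a called difference changed sign in any setting run, while the differences of Chad, Erbb2, Mmp9 and Pglyrp1, which were not called, did in at least 1. Counts are given as opposite, WT-specific, ATLD-specific, unequal and shared genes. With a log2 value of at least 1 in each called contrast they were 251, 1349, 151, 47 and 116. Within the second batch alone 2102 differences were called and the class counts that moved by over 1.5 times were 1091 WT-specific, 105 unequal and 218 shared. With the GC offset opposite genes numbered 954, ATLD-specific 676, unequal 315 and shared 617, and with that offset and the resequenced runs together opposite genes numbered 915, unequal 310 and shared 586. Leaving out 1 library at a time gave 2964 to 6709 called differences, 435 to 935 opposite, 1773 to 4368 WT-specific, 298 to 678 ATLD-specific, 117 to 396 unequal and 248 to 688 shared genes. The upper ends came without WT day 14 replicate 2, and the 117 without ATLD day 14 replicate 3. Other settings moved no class count by over 1.5 times. Same-numbered samples did not all deviate together (r from -0.70 to 0.87 in WT and -0.40 to 0.63 in ATLD), and not every sample correlated best with its own number. Taken from means of only 3 libraries, these correlations cannot decide whether the numbers pair the samples. The fit with a replicate block called 3759 differences. Of the 113 genes named or ranked, calls were unchanged for 113 with the GC offset, 110 with the resequenced runs and 86 within the second batch, where 27 lost theirs. The cause was not tested. Sequencing batch and genotype cannot be told apart at a single day, and the second batch holds 1 WT run per day.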

Other observations

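Transcripts typical of lung epithelium were present at low levels in the original WT libraries of both days. The summed level of 11 such markers was 10.3 to 19.5 CPM in WT at day 0 and 17.1 to 20.0 CPM in WT at day 14, against 7.35 to 8.59 CPM and 10.7 to 16.5 CPM in ATLD. Sftpa1 and Scgb3a2 were at 0 in the ATLD libraries of both days and in the resequenced WT runs. Of the 8 markers tested, 1 had a called higher (10.1% over all genes) and 1 a called lower difference of differences (10.3%). Summed levels of lymphocyte and adipocyte markers were at or below 1.45 CPM in each of the 12 libraries.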
